A study of Mus musculus with 13 samples.

Results

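The 10 genes described here lie on mouse chromosome 6 within 20 Mb of Cd8a. They are Nod1, Pde1c, Kbtbd2, Fkbp9, Herc6, Vopp1, Gm44174, Gm44175, Mat2a and Sema4f, 10 of the 54532 gene identifiers counted and 10 of the 1038 identifiers within 20 Mb once Cd8a is left out. They were selected on their measured difference between CD8KO and wild-type (WT) conventional NK cells: they are exactly the genes of that window that passed the test in that comparison, so every difference between CD8KO and WT below is a description with no test. The comparison of liver-resident with conventional NK cells, averaged over CD8KO and WT, does not use that difference and was tested.

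The series profiled RNA from sorted natural killer (NK) cells of mice aged 8 to 10 weeks, all labelled strain C57BL/6J, and its title concerns how CD8+ T cells bear on the maturation of liver-resident NK cells. Liver-resident NK cells (LrNK) were labelled as liver lymphocytes and conventional NK cells (cNK) as splenocytes, so cell type and tissue cannot be told apart between them. The groups were LrNK of CD8KO mice (3 libraries), LrNK of WT mice (4 libraries), cNK of CD8KO mice (3 libraries) and cNK of WT mice (3 libraries). The labels do not say how the CD8KO allele was made, nor how many animals, or of which sex, gave each library. In each LrNK group 1 pair of libraries agreed far more closely than the others and was summed as 1 sample, which left 2, 3, 3 and 3 samples. Because nothing states that samples came from separate animals, p-values measure only the spread between these samples.

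Cd8a encodes the alpha chain of CD8, the coreceptor of cytotoxic T cells, which mouse NK cells are generally described as lacking. Genes that lie close together on a chromosome tend to be inherited together, so an engineered allele is passed on with its neighbours. The 10 genes have varied roles and include a bacterial sensor, a phosphodiesterase, ubiquitin ligase components, a protein folding enzyme, a methionine enzyme, a semaphorin and long non-coding RNAs.

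Just below Cd8a lie the long intergenic non-coding RNAs Gm44174 and Gm44175, and their sequences and that at the start of Cd8a are shown because these 2 genes differed most. In GRCm38 coordinates, Gm44174 lies at chr6:71353035-71373284 on the plus strand, the strand of Cd8a (chr6:71373427-71379173). Its exon 1 has 81 bases (chr6:71353035-71353115) and its exon 2 has 60 bases (chr6:71373225-71373284), and 142 bases separate the end of exon 2 from the start of Cd8a. Gm44175 (chr6:71354351-71360829) lies on the minus strand inside the intron of Gm44174 and shares no exonic base with it. The first sequence is the RefSeq window of GRCm38.p6 from 250 bases before to 50 bases after the annotated start of Cd8a (chr6:71373177-71373476, plus strand), with exon 2 of Gm44174 in capitals. The second is the whole GENCODE M21 transcript of Gm44174, 141 bases, again with exon 2 in capitals, and the third is the first exon of Gm44175, 133 bases (chr6:71360697-71360829, minus strand).
Cd8a start window: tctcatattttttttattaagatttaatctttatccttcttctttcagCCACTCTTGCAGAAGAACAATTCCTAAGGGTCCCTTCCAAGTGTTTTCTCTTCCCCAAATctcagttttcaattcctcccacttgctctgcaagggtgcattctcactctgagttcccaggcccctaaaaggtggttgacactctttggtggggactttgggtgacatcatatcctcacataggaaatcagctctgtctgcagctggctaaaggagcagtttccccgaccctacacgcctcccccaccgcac
Gm44174 transcript: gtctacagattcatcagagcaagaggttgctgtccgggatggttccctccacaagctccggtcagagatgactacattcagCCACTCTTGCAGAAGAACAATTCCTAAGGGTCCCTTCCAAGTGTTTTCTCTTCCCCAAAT
Gm44175 first exon: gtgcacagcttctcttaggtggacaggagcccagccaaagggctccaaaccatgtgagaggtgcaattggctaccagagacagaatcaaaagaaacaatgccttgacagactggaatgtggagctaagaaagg

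Library totals ran from 35910292 to 47655853 counts in LrNK CD8KO, 30578631 to 42986589 in LrNK WT, 48600875 to 59670243 in cNK CD8KO and 53519657 to 72716020 in cNK WT. Levels are given as CPM, the counts of a gene per 1000000 counts of its library, after TMM scaling over the 11 samples. Itga1, which encodes CD49a, a surface mark of LrNK, was higher in LrNK than in cNK by 3.86 ± 0.14 on the log2 scale (SE), and Itga2, which encodes the cNK mark CD49b, was lower by 4.06 on that scale (adjusted p 3.01e-08 and 2.24e-08, edgeR quasi-likelihood test). Cd8a RNA was not lost in the libraries labelled CD8KO, and counts per gene do not by themselves test the allele. Cd8a averaged 43.8 ± 4.51 CPM in LrNK CD8KO (SD, n = 2), 20.7 ± 1.05 in LrNK WT, 92.5 ± 12.7 in cNK CD8KO and 0.561 ± 0.00998 in cNK WT (n = 3 each), so its RNA was higher in the libraries labelled CD8KO in either cell type. CD8KO is used below as the name of those libraries. Cd8b1, which encodes the beta chain and lies 50.6 kb below Cd8a, stayed near 0, with means of 0.295 CPM in LrNK CD8KO, 0 in LrNK WT, 0.159 in cNK CD8KO and 0.0436 in cNK WT.

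The libraries also differed in sex-linked RNA. Xist, made from the inactive X chromosome of female cells, was at 92.7 and 144 CPM in LrNK CD8KO and at 0.273, 0.768 and 1.88 CPM in LrNK WT. In cNK it was at 0.243, 261 and 800 CPM in CD8KO samples 1 to 3, and at 0.0287, 0.245 and 0.294 CPM in WT. Ddx3y, from the Y chromosome, was present together with Xist in LrNK CD8KO (65.6 and 79.3 CPM) and in cNK CD8KO sample 2 (59.6 CPM). Of the CD8KO samples, only cNK sample 1 (Ddx3y at 100 CPM) was as low in Xist as the WT samples, and the values of the 10 genes in that sample are given separately below. In bulk RNA, fewer cells of a type and less RNA per cell cannot be told apart.

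In cNK, Gm44175 and Gm44174 were far higher in CD8KO than in WT, Pde1c and Fkbp9 were more than 5-fold lower, and the other 6 genes differed by 1.16- to 1.74-fold. Of the 16619 genes tested in cNK, 218 were called by the label, or 1.31% (edgeR quasi-likelihood test, Benjamini-Hochberg adjusted p under 0.05). All 10 genes were among them, as the choice of members requires, with 5 higher and 5 lower in CD8KO, against 0.499% of all tested genes called higher and 0.812% called lower. No sample of CD8KO cNK overlapped a sample of WT cNK for any of the 10, against 18.0% of all tested genes whose samples did not overlap. The median size of their log2 change was 0.71, against 0.11 over all genes tested. The lack of overlap and this median also follow largely from the choice of members, so nothing is read from them.

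**Figure D1:**
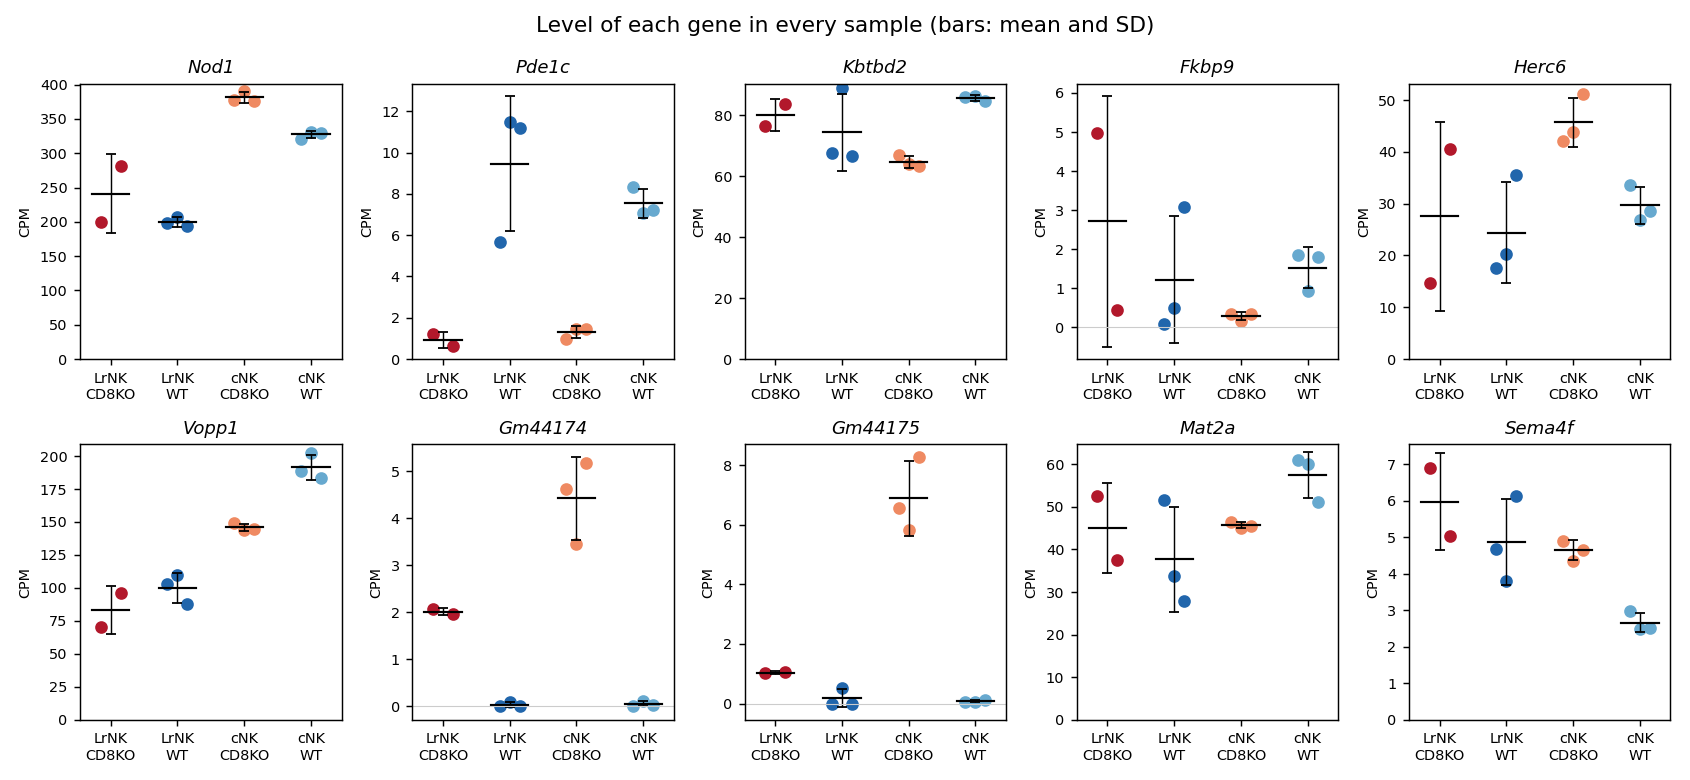
Level of each of the 10 genes in every sample, in CPM on a linear axis, for LrNK CD8KO, LrNK WT, cNK CD8KO and cNK WT; points are samples, horizontal lines are means and whiskers are SD. The CD8KO and WT samples of cNK are apart in every panel, while in LrNK they are apart for Pde1c, Gm44174 and Gm44175.

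Gm44174 had 4.63, 3.45 and 5.18 CPM in the CD8KO cNK samples, against 0.0143, 0.109 and 0.0368 CPM in the WT cNK samples. The WT values rest on 1, 8 and 2 counts, and the CD8KO values on 229, 209 and 302. Pooled over the unscaled counts of a group, the level was 4.47 CPM (95% Poisson interval 4.15 to 4.81) in CD8KO and 0.0564 CPM (0.0282 to 0.101) in WT, an interval that covers counting error only. The log2 change was 6.26 ± 0.39 (SE), or 76.7-fold. In LrNK the 2 CD8KO samples had 2.07 and 1.96 CPM, against 0, 0.0887 and 0 CPM in the 3 WT samples. Every CD8KO sample was thus above every WT sample in LrNK too, with a log2 change of 5.92 ± 2.55, and the 3 WT samples held 6 counts in all. For the WT samples without a count, 3 counts would amount to 0.0705 and 0.0768 CPM.

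Gm44175 had 6.55, 5.84 and 8.28 CPM in CD8KO cNK, against 0.0574, 0.0544 and 0.110 CPM in WT cNK. Its log2 change of 6.55 ± 0.29, or 93.9-fold, was the largest of the 10 genes. In LrNK the CD8KO samples had 1.01 and 1.07 CPM, and the WT samples had 0, 0.517 and 0 CPM. The groups again did not overlap, but the log2 change of 2.56 ± 2.82 turned on WT sample 2, which held all 35 counts of that group. Without that sample WT LrNK held no count of either gene, and no fold can be given. Per kilobase of exon, Gm44174 averaged 31.3 ± 6.27 CPM in CD8KO cNK, beside 25.4 ± 3.48 for Cd8a and 1.62 ± 0.295 for Gm44175 (SD, n = 3). The exonic length of Gm44174, 141 bases, is short, so its level per length rests on few positions. The library kit does not mark strand, and reads of Gm44175 cannot be told apart from unspliced RNA of the opposite strand within the intron of Gm44174.

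Of the other genes tested within 0.5 Mb of Cd8a, none was called by the label in cNK except Cd8a itself. Gm1070, a non-coding RNA 0.08 Mb below Cd8a, averaged 0.272 CPM in CD8KO and 0.0708 CPM in WT cNK, a log2 change of 1.91 ± 0.55 that did not pass the test. In LrNK it averaged 1.14 and 0.0303 CPM, and its samples did not overlap by label in either cell type. The protein-coding neighbours Krcc1, Rmnd5a, Rnf103, Chmp3 and Kdm3a had log2 changes in cNK of 0.06, -0.01, -0.05, 0.03 and -0.02, with errors of 0.05 to 0.07. These 5 genes were nearly equal in CD8KO and WT cNK, unlike Cd8a, the protein-coding gene next to Gm44174. The other protein-coding genes tested there were Mrpl35 (0.02 ± 0.10), Immt (-0.11 ± 0.05) and Thnsl2 (0.93 ± 0.55). Thnsl2 averaged 0.303 CPM in CD8KO and 0.161 CPM in WT cNK. Every CD8KO cNK sample of Immt was below every WT one, where 18.0% of all tested genes did not overlap.

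Profiles over the 11 samples were compared by the mean absolute difference of log2(CPM + 0.5), each gene centred on its own mean. The profile of Gm44175 is largely its change by label, which chose it. Genes with a large change by label are therefore bound to lie near it, and the distances are a description only. The gene nearest to Gm44175 was Gm44174, at 0.39, against a median of 1.39 over the 19287 genes. Next came the Y chromosome pseudogene Mid1-ps1, at 0.72, and Mid1 on the X chromosome, which encodes a microtubule-associated ubiquitin ligase, at 0.79. Mid1 was at 9.57 and 25.8 CPM in LrNK CD8KO, at 0, 1.51 and 0.0509 CPM in LrNK WT, at 20.2, 16.5 and 23.9 CPM in cNK CD8KO and at 1.35, 1.66 and 2.21 CPM in cNK WT. Mid1 was high in cNK CD8KO sample 1, which was low in Xist, as in samples 2 and 3. In the other CD8KO samples both Mid1 and Xist were above every WT sample. The cause of the difference in Mid1 was not tested.

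Pde1c, a calcium- and calmodulin-stimulated phosphodiesterase that breaks down cyclic AMP and cyclic GMP, was the protein-coding gene with the largest change. It lies at chr6:56069804-56569103 on the minus strand, 15.30 Mb below Cd8a. In CD8KO cNK it had 0.970, 1.47 and 1.46 CPM, against 8.36, 7.09 and 7.22 CPM in WT cNK. That is a log2 change of -2.53 ± 0.18, or 5.79-fold lower. In LrNK it had 1.2 and 0.649 CPM in CD8KO, against 5.69, 11.5 and 11.2 CPM in WT. All 5 CD8KO samples of the 2 cell types were below all 6 WT samples, and the LrNK log2 change was -3.36 ± 0.82, or 10.2-fold lower.

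Fkbp9, a peptidyl-prolyl isomerase of the endoplasmic reticulum that helps proteins fold, lies at chr6:56832059-56879358 on the plus strand, 14.54 Mb below Cd8a. It had 0.344, 0.165 and 0.343 CPM in CD8KO cNK, against 1.85, 0.925 and 1.80 CPM in WT cNK, from 47 and 295 counts in all. The log2 change in cNK was -2.42 ± 0.38, or 5.37-fold lower. In LrNK the CD8KO samples were at 4.98 and 0.445 CPM and the WT samples at 0.0910, 0.488 and 3.08 CPM. They overlapped, and the log2 change was 1.15 ± 1.83, of the opposite sign to that in cNK and smaller than its error. Leaving out 1 LrNK sample at a time moved it between -1.45, without CD8KO sample 1, and 3.22, without WT sample 3.

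The next genes take part in attaching ubiquitin or its relatives. Herc6, a ligase induced by interferon that in the mouse attaches the ubiquitin-like protein ISG15, lies at chr6:57581000-57664632 on the plus strand, 13.79 Mb below Cd8a. It had 42.2, 43.9 and 51.1 CPM in CD8KO cNK, against 33.6, 26.9 and 28.5 CPM in WT cNK, a log2 change of 0.62 ± 0.08, or 1.54-fold. In LrNK it had 14.7 and 40.5 CPM in CD8KO and 17.6, 20.2 and 35.5 CPM in WT, where the samples overlapped and the log2 change was 0.18 ± 0.51. That LrNK value was 0.73 without CD8KO sample 1 and -0.74 without CD8KO sample 2. Kbtbd2, an adaptor that brings substrates to cullin 3 ubiquitin ligases, lies at chr6:56777524-56797813 on the minus strand, 14.60 Mb below Cd8a. It had 67.1, 64.1 and 63.3 CPM in CD8KO cNK, against 86.2, 86.5 and 84.6 CPM in WT cNK, with a log2 change of -0.41 ± 0.05. Its LrNK samples overlapped, with 76.4 and 83.9 CPM in CD8KO and 67.7, 89.1 and 66.7 CPM in WT.

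Nod1, a cytosolic sensor of bacterial peptidoglycan fragments that signals through the kinase Ripk2 to NF-kB, lies at chr6:54923949-54972612 on the minus strand, 16.45 Mb below Cd8a. It had 378, 391 and 376 CPM in CD8KO cNK, against 321, 331 and 330 CPM in WT cNK. This was the smallest change of the 10 genes, a log2 change of 0.22 ± 0.04, and the replicates within each label were close enough that the groups did not overlap. In LrNK the CD8KO samples were at 200 and 282 CPM and the WT samples at 198, 207 and 194 CPM, which overlap. Vopp1, which encodes a membrane protein of vesicles, lies at chr6:57727807-57825159 on the minus strand, 13.65 Mb below Cd8a. It had 149, 144 and 145 CPM in CD8KO cNK, against 189, 202 and 183 CPM in WT cNK, a log2 change of -0.39 ± 0.05. In LrNK it had 70.1 and 95.8 CPM in CD8KO and 103, 110 and 87.5 CPM in WT, with overlapping samples and a log2 change of -0.27 ± 0.24.

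The last 2 genes lie above Cd8a. Mat2a, the catalytic subunit of the enzyme that makes S-adenosylmethionine, the cell's methyl donor, lies at chr6:72432799-72439558 on the minus strand, 1.06 Mb away. It had 46.4, 45.0 and 45.5 CPM in CD8KO cNK, against 61.0, 60.0 and 51.2 CPM in WT cNK, a log2 change of -0.34 ± 0.07. Its LrNK samples overlapped, at 52.5 and 37.6 CPM in CD8KO and 51.5, 33.7 and 27.9 CPM in WT. Sema4f, a transmembrane semaphorin of the kind known from axon guidance, lies at chr6:82911885-82939769 on the minus strand, 11.54 Mb away. It had 4.91, 4.36 and 4.66 CPM in CD8KO cNK, against 2.97, 2.50 and 2.52 CPM in WT cNK, a log2 change of 0.80 ± 0.16, or 1.74-fold. In LrNK it had 6.91 and 5.03 CPM in CD8KO and 4.69, 3.80 and 6.14 CPM in WT, which overlap. Annotated exons of Kbtbd2 and Mat2a share 223 and 508 bases with the opposite-strand genes Gm10209 and Particl, which drew 180 and 63 counts over all samples. Reads from those bases cannot be told apart by strand. Herc6 shares 1269 of its 9292 exonic bases with the same-strand gene Gm45193, which drew 0 counts. How reads from the bases shared by those 2 genes were counted is not known.

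**Figure D2:**
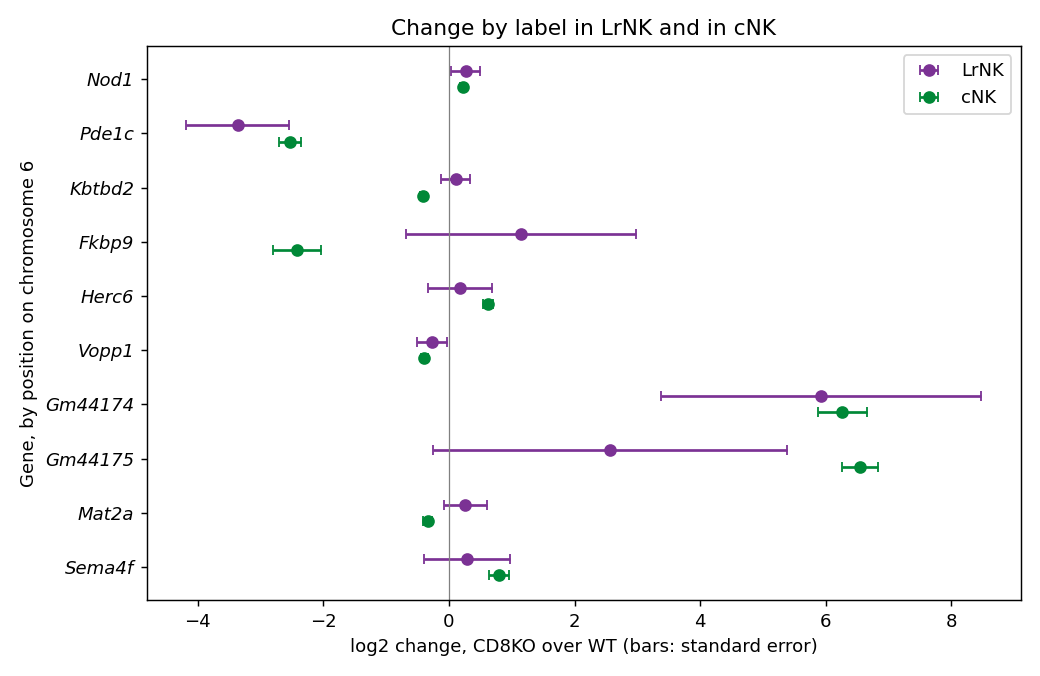
log2 change of CD8KO over WT for each of the 10 genes, in LrNK (upper point of each pair) and in cNK (lower point), in order along chromosome 6; bars are standard errors. Pde1c lies far below 0 and Gm44174 and Gm44175 lie above 0 in both, with a bar that crosses 0 for Gm44175 in LrNK, while the LrNK values of the other genes lie close to 0 relative to their standard errors.

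Across the 2 cell types, 3 of the 10 genes (Pde1c, Gm44174 and Gm44175) had samples that did not overlap by label and moved the same way, where 1.74% of the 14974 genes tested in both did. All 10 were already apart in cNK by the way they were chosen, so nothing is read from that comparison of shares. In LrNK alone the same 3 did not overlap, against 18.5% of genes tested there. The sign of the log2 change was the same in LrNK and cNK for 7 of the 10, against 49.2% of genes, and was opposite for Kbtbd2, Fkbp9 and Mat2a. None of the 10 passed in LrNK by edgeR, where 0 of 16504 genes were called (0%) and 615 had an unadjusted p under 0.05. DESeq2 called 62 genes and limma voom 0. Whether any of the 10 were among the 62 was not recorded, and Pde1c had -3.35 ± 0.74 by DESeq2. The spread between LrNK samples was far wider than between cNK samples, with a biological coefficient of variation of 98.2% against 9.6%. The median size of the log2 change in LrNK was 0.28 for the 10 genes and 0.37 for all genes. Whether the label's effect differs between LrNK and cNK was not tested for these genes.

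The 1 cNK CD8KO sample low in Xist was set against the 3 WT samples. The direction of the 10 genes is fixed there, since no CD8KO cNK sample overlapped WT. Nor are the sizes independent of the choice of members, in which that sample took part. The log2 changes were 6.49 ± 0.36 for Gm44175, 6.34 ± 0.49 for Gm44174, -2.95 ± 0.25 for Pde1c and -2.12 ± 0.51 for Fkbp9. For the other 6 genes they ran from -0.35 for Vopp1 to 0.89 for Sema4f, beside -0.41 to 0.80 with all samples. The lone sample had to be assumed to vary like the WT samples, so the calls of that fit are not relied on.

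Calls in cNK depended on the samples in the fit. Leaving out 1 sample at a time, 71 genes were called without CD8KO sample 2 and 90 without WT sample 1, and 7 to 9 of the 10 were still called. Pde1c, Kbtbd2, Fkbp9, Herc6, Vopp1, Gm44174 and Gm44175 were called in each of the 6 such fits, while Nod1, Mat2a and Sema4f lost their call in 3, 4 and 5 of the fits, in that order. A fit of all 4 groups with 1 shared spread called 1 gene by the label in cNK and none of the 10.

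**Figure D3:**
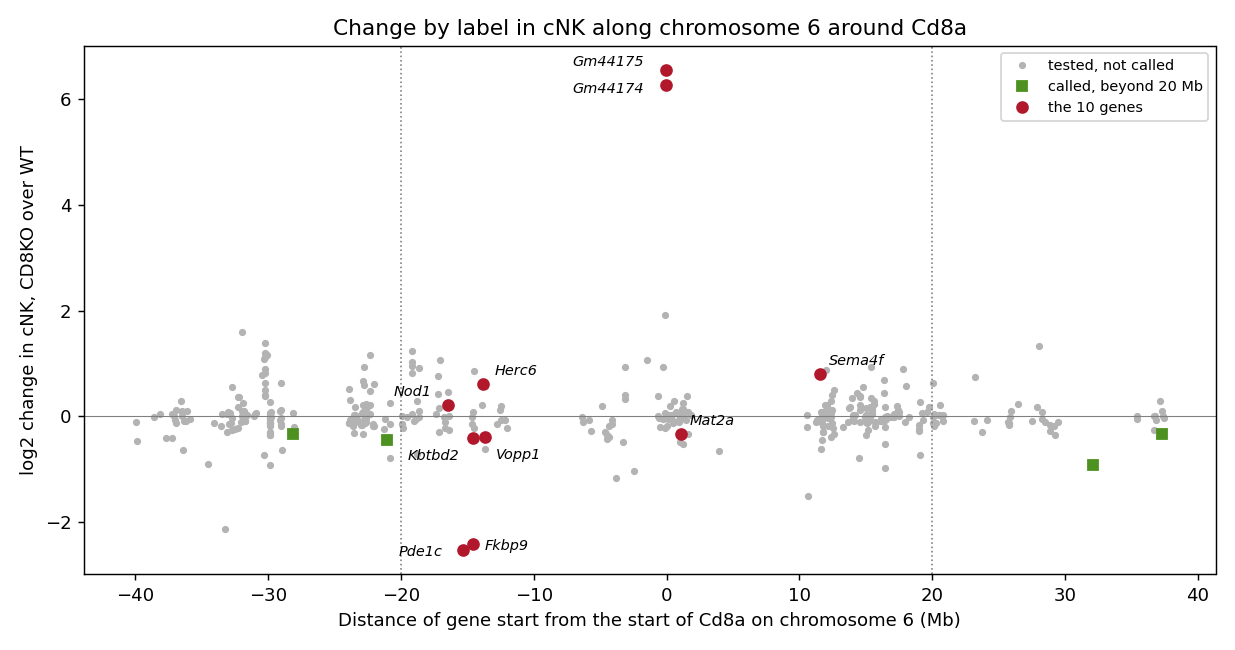
log2 change of CD8KO over WT in cNK for every tested gene within 40 Mb of Cd8a, against the distance of its start from that of Cd8a in Mb; red circles are the 10 genes, green squares other called genes, grey points genes not called, and dotted lines mark 20 Mb. Gm44174 and Gm44175 stand at the position of Cd8a with log2 changes above 6, and Nod1, Pde1c, Kbtbd2, Fkbp9, Herc6 and Vopp1 form a group between 13.65 and 16.45 Mb below it.

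The 10 genes were unevenly placed. Nod1, Pde1c, Kbtbd2, Fkbp9, Herc6 and Vopp1 fell in a stretch 13.65 to 16.45 Mb below Cd8a, and between 10 and 15 Mb below it 4 of 19 tested genes were called. In that stretch Nod1 and Herc6 were higher and the other 4 genes lower. From 5 to 10 Mb below Cd8a, 0 of 4 tested genes were called, and from 5 to 10 Mb above it no gene was tested. Within 5 Mb, 3 of 59 tested genes were called, which are Gm44174, Gm44175 and Mat2a. In the whole window of 20 Mb, 10 of 234 tested genes were called (4.27%), against 4 of 198 (2.02%) from 20 to 40 Mb, 10 of 447 (2.24%) on the rest of chromosome 6 and 193 of 15739 (1.23%) on other chromosomes. Since these calls chose the members, nothing further is read from the first share.

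The threshold in distance fell between Nod1, at 16.45 Mb, and Osbpl3, at 21.08 Mb, a sterol-binding protein gene with a log2 change in cNK of -0.45 ± 0.05. Osbpl3 averaged 152 CPM in LrNK CD8KO and 258 CPM in LrNK WT, and 308 CPM in cNK CD8KO and 421 CPM in cNK WT. The threshold of the test fell between Nod1 (0.22 ± 0.04), Sema4f (0.80 ± 0.16) and Mat2a (-0.34 ± 0.07) inside it, and Nt5c3 (-0.22 ± 0.05), Ggct (-0.25 ± 0.07) and Gng12 (-0.36 ± 0.09) just outside, so Mat2a and Gng12 changed by like amounts. Nt5c3 is the tested gene next to Fkbp9 and Ggct the one next to Nod1. The genes next to Pde1c were Gars, with a log2 change of 0.01 ± 0.06, and Lsm5, with -0.14 ± 0.08, so its change of -2.53 was not shared by either neighbour. Herc6 lies next to Ppm1k (0.22 ± 0.06), Vopp1 next to Abcg2 (-0.15 ± 0.06) and Lancl2 (-0.61 ± 0.19), and Mat2a next to Ggcx (-0.07 ± 0.09) and Capg (0.14 ± 0.08), none of them called.

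Genes of the same families or pathways were set beside the members. The members were chosen as called, so lying apart from mostly uncalled relatives is largely fixed by that choice. The 15 other phosphodiesterases tested in cNK included 0 called by the label, with a median log2 change of -0.07, beside -2.53 for Pde1c. Pde1b, its closest relative tested, averaged 53.0 CPM in CD8KO and 55.8 CPM in WT cNK. Of 10 other FKBP isomerases 0 were called, with a median of 0.00, beside -2.42 for Fkbp9. Of 15 genes of NOD signalling 0 were called, with a median of 0.00, beside 0.22 for Nod1, and Ripk2, its kinase, had -0.08 ± 0.09.

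The interferon-stimulated list has 19 genes, among them Herc3, listed as a HERC gene like Herc6. Of these 1 was called, Oas1a, which makes the second messenger that activates RNase L, with 0.43 ± 0.10 (edgeR adjusted p 0.0404). The median of that list was 0.06, beside 0.62 for Herc6, and the interferon regulator Irf7 had 0.25 ± 0.06, not called. Of 11 genes of the methionine cycle 0 were called, with a median of -0.01, beside -0.34 for Mat2a, and Mat2b, which encodes the regulatory subunit of the same enzyme, had 0.03 ± 0.06. Of 9 class 4 semaphorins and plexins 0 were called, with a median of 0.11, beside 0.80 for Sema4f. Among 11 Kelch and BTB genes 1 was called, Kbtbd11, with 0.26 ± 0.05 (edgeR adjusted p 0.0192), the opposite sign to the -0.41 of Kbtbd2. The background for these counts is the 1.31% of all genes called, and in LrNK 0 genes of any list were called.

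**Figure D4:**
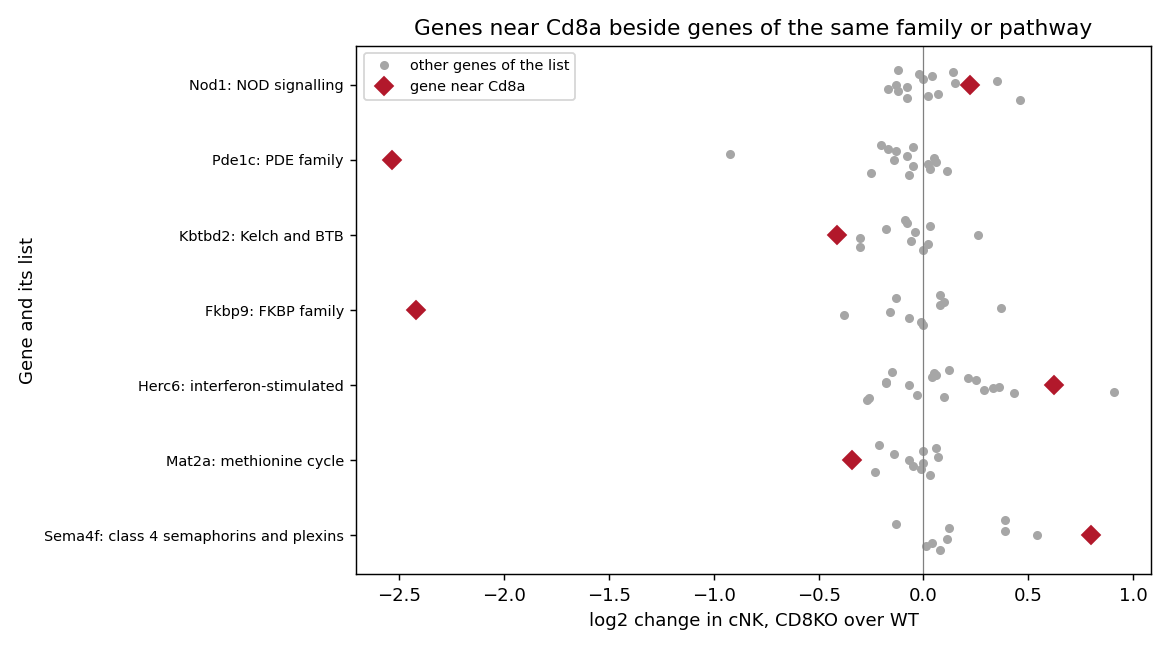
log2 change of CD8KO over WT in cNK for 7 of the 10 genes (red diamonds) beside the tested genes of their family or pathway (grey points, spread vertically for legibility). Pde1c at -2.53, Fkbp9 at -2.42, Kbtbd2 at -0.41 and Mat2a at -0.34 lie below all tested relatives and Sema4f at 0.80 above, whereas Nod1 at 0.22 and Herc6 at 0.62 lie among theirs.

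Markers of other cells were measured beside these differences. In cNK, the summed level of 11 T cell genes was 1311 to 1369 CPM in CD8KO and 1236 to 1265 CPM in WT, with Cd3d and Cd3g 2 of 10 tested genes called, both higher (log2 changes 0.57 ± 0.10 and 0.66 ± 0.11). Cd8b1, the marker of that list specific to CD8 T cells, was at 0.159 CPM in CD8KO and 0.0436 CPM in WT cNK. The 5 B cell genes summed to 6.32 to 11.1 CPM in CD8KO and 3.73 to 5.70 CPM in WT, with 0 called. The 6 neutrophil and monocyte genes summed to 282 to 310 CPM in CD8KO and 341 to 354 CPM in WT, with Ly6c2 1 of 4 tested genes called, lower. The Kupffer, dendritic and endothelial lists overlapped between CD8KO and WT cNK with 0 called, and the hepatocyte list was at no more than 0.165 CPM. The 7 NK genes summed to 11081 to 11713 CPM in CD8KO and 10474 to 11508 CPM in WT. The 3 LrNK markers summed to 48.8 to 54.0 CPM in CD8KO and 40.8 to 46.9 CPM in WT, with Itga1 called higher (0.75 ± 0.09), and the 4 cNK markers to 2525 to 2644 CPM in CD8KO and 2499 to 2583 CPM in WT, with 0 called. The part of these cells in the differences of the 10 genes was not tested.

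In LrNK, the neutrophil and monocyte genes summed to 2904 to 8771 CPM in CD8KO and 762 to 4247 CPM in WT, and the T cell genes to 1194 to 1575 CPM in CD8KO and 1955 to 2460 CPM in WT. The B cell genes summed to 11.5 to 121 CPM in CD8KO and 9.99 to 16.1 CPM in WT, the Kupffer genes to 64.1 to 178 CPM and 23.7 to 87.8 CPM, and the endothelial genes to 97.5 to 129 CPM and 94.9 to 106 CPM. The dendritic genes summed to 595 to 739 CPM in CD8KO and 927 to 1080 CPM in WT, and the hepatocyte genes to 25.2 to 41.5 CPM and 18.1 to 51.8 CPM. The 7 NK genes summed to 2827 to 3476 CPM in CD8KO and 5472 to 7251 CPM in WT. The 3 LrNK markers (Itga1, Cxcr6 and Tnfsf10) summed to 487 to 582 CPM in CD8KO and 702 to 1105 CPM in WT, and the 4 cNK markers to 142 to 260 CPM in CD8KO and 57.5 to 109 CPM in WT. The T cell, dendritic, NK, LrNK and cNK lists did not overlap by label, the other lists overlapped, and no gene of any list was called in LrNK. Their part in the values of the 10 genes was not tested.

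LrNK were then compared with cNK over both labels, the comparison that did not choose the members. This fit, also used within CD8KO and within WT, gave the 4 groups 1 shared spread. The biological coefficient of variation was 63.6% over the 4 groups, against 98.2% in LrNK alone and 9.6% in cNK alone. Its p-values thus do not measure the spread of either cell type by itself. Vopp1 and Nod1 were lower in LrNK, and the other 8 genes did not pass the test. These are 2 of 10 genes, against 35.2% of the 19287 genes tested (16.8% higher and 18.4% lower), so the share of the 10 was not above that of all genes. The median size of the difference was 0.65 on the log2 scale for the 10 genes and 0.70 for all genes.

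Vopp1 had 70.1 to 110 CPM in the 5 LrNK samples, against 144 to 202 CPM in the 6 cNK samples, as listed above. Every LrNK sample was below every cNK sample, and the log2 difference was -0.87 ± 0.10, or 1.83-fold lower in LrNK (edgeR adjusted p 7.91e-05). Within CD8KO alone it was -0.81 ± 0.15 and within WT alone -0.93 ± 0.13 (edgeR adjusted p 0.00345 and 0.000629), where 18.5% and 25.4% of all tested genes were called. Nod1 had 194 to 282 CPM in LrNK, against 321 to 391 CPM in cNK, again with 5 of 5 LrNK samples below all cNK samples. Its log2 difference was -0.69 ± 0.09, or 1.61-fold lower (edgeR adjusted p 0.000236), with -0.66 ± 0.14 within CD8KO and -0.71 ± 0.12 within WT (edgeR adjusted p 0.007 and 0.00202). Over all alternatives the adjusted p stayed between 1.62e-14 and 0.00345 for Vopp1 and between 1.83e-11 and 0.007 for Nod1.

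**Figure D5:**
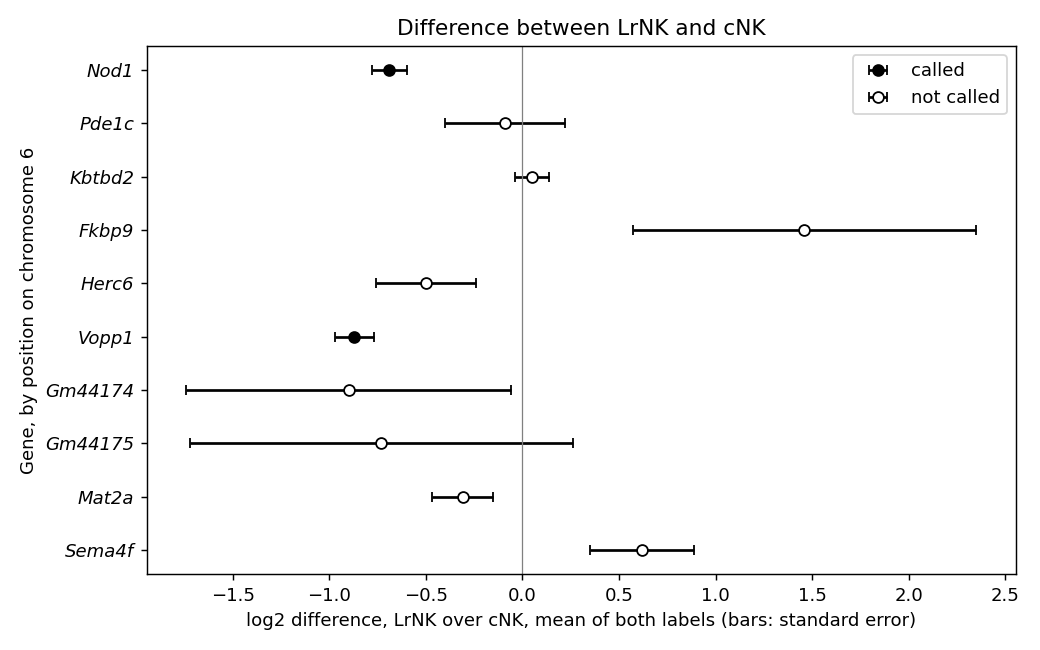
log2 difference of LrNK over cNK, averaged over CD8KO and WT, for each of the 10 genes; bars are standard errors, filled points passed the test and open points did not. Nod1 and Vopp1 lie below 0 by several standard errors, and the widest bars are those of Gm44175, Fkbp9 and Gm44174, the genes with the fewest counts.

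The genes with the largest change by label differed little between the cell types relative to their error. Pde1c had a log2 difference of -0.09 ± 0.31 (edgeR adjusted p 0.854), Gm44174 one of -0.90 ± 0.84 (0.455) and Gm44175 one of -0.73 ± 0.99 (0.614). Without LrNK WT sample 2, which held all counts of both non-coding genes in that group, the differences were -2.87 for Gm44174 and -3.87 for Gm44175 and passed the test (edgeR adjusted p 0.0258 and 0.0015, over alternatives that ran to 0.818 and 0.849). Those fitted values depend on the prior count, since WT LrNK then held no count of either gene. In the CD8KO samples, Gm44175 had 1.01 and 1.07 CPM in LrNK, against 5.84 to 8.28 CPM in cNK, and Gm44174 had 1.96 and 2.07 CPM in LrNK, against 3.45 to 5.18 CPM in cNK, so both were lower in each LrNK sample, as was Cd8a. Fkbp9, with 1.46 ± 0.89 (edgeR adjusted p 0.241), varied widely between LrNK samples, over 0.0910 to 4.98 CPM.

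Herc6 had a difference of -0.50 ± 0.26 (edgeR adjusted p 0.17), Mat2a one of -0.31 ± 0.16 (0.16) and Sema4f one of 0.62 ± 0.27 (0.105). Kbtbd2 was nearest to equal, with 0.05 ± 0.09 (0.706). Herc6 passed without LrNK CD8KO sample 2 (-0.91, adjusted p 0.014) and without LrNK WT sample 3 (-0.67, 0.0488), Mat2a without LrNK WT sample 1 (-0.46, 0.0122), and Sema4f without LrNK WT sample 2 (0.74, 0.0337). With all samples, Sema4f passed with DESeq2 (0.68, adjusted p 0.00411), and Mat2a passed in edgeR with the 13 libraries kept apart (-0.38, adjusted p 0.0463). Over all alternatives the highest adjusted p was 0.617 for Herc6, 0.973 for Mat2a and 0.617 for Sema4f.

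The LrNK libraries held 13917 to 22921 detected genes each, with the fewest in CD8KO sample 1 and WT samples 1 and 3. With the remaining 2 LrNK samples against all cNK samples, a comparison added after the data were seen, each LrNK group has 1 sample. The spread then comes from cNK alone and the LrNK samples are assumed to vary as little, although the coefficient of variation was 98.2% in LrNK and 9.6% in cNK, so the calls of that fit are not relied on. Its log2 differences were -0.56 for Nod1, -0.72 for Vopp1, -0.54 for Mat2a, -0.38 for Herc6 and 0.20 for Kbtbd2. Markers of other cells also differed between LrNK and cNK: 5 of 5 hepatocyte genes, 5 of 6 neutrophil and monocyte genes, 9 of 11 T cell genes, 4 of 6 dendritic genes, 3 of 5 Kupffer genes, 3 of 5 endothelial genes and 1 of 5 B cell genes were called higher in LrNK, against 16.8% of all genes. Called lower in LrNK were Lck of the T cell list, Ly6c2 of the neutrophil and monocyte list, Marco of the Kupffer list and Pecam1 of the endothelial list, 1 gene each. In cNK CD8KO and cNK WT, 4 and 3 of the 5 hepatocyte genes had no count. Of the 7 NK genes, 6 were called lower in LrNK and 0 higher, against 18.4% of all genes called lower. The median log2 difference of the NK genes was -1.10, beside -0.69 for Nod1 and -0.87 for Vopp1. The part of any of these marker differences in the lower Nod1 and Vopp1 was not tested.

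Relatives of the members were also compared between cell types, where 16.8% of all tested genes were called higher in LrNK and 18.4% lower. Of 15 NOD signalling genes 7 were higher and 5 lower in LrNK, where Nod1 was lower. Nod2, the related sensor, was higher by 2.91 ± 0.21 on the log2 scale (edgeR adjusted p 3.71e-06) and Ripk2 by 0.49 ± 0.11 (edgeR adjusted p 0.00543). Of 19 genes on the interferon-stimulated list 14 were higher. The 1 that was lower was Herc3, listed there as a HERC gene like Herc6, with -0.88 ± 0.14 (edgeR adjusted p 0.000603). Herc6 itself did not pass. Kbtbd8, Kbtbd11, Klhl6 and Klhl24 were the 4 of 11 Kelch and BTB genes that were lower, with 0 higher. Of 14 methionine cycle genes 9 were higher and 2 lower, among them Ahcyl2, higher by 1.44 ± 0.07 (edgeR adjusted p 3.37e-07). Mat1a and Bhmt, both called higher, averaged 0 CPM in either cNK group. Cbs and Gnmt, also called higher, averaged no more than 0.139 and 0.999 CPM there. The hepatocyte genes were likewise higher in LrNK and near 0 in cNK, and their part in this list was not tested. Among 16 phosphodiesterases 4 were higher and 4 lower, among 11 FKBP genes 4 and 1, and among 9 semaphorins and plexins 4 and 2, with Sema4a lower by 1.25 and Sema4d, which encodes CD100, higher by 0.59 on the log2 scale.

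Levels can be compared between the genes only per length. Per kilobase of exon, Nod1 was the most abundant member in all 4 groups, at 47.5 ± 11.4 CPM in LrNK CD8KO (n = 2), 39.3 ± 1.28 in LrNK WT, 75.1 ± 1.64 in cNK CD8KO and 64.4 ± 1.12 in cNK WT (SD, n = 3). In cNK WT, Kbtbd2 (21.0 ± 0.252 CPM per kilobase) and Vopp1 (19.5 ± 0.972) followed, then Mat2a (12.8 ± 1.2), Herc6 (3.19 ± 0.378), Sema4f (0.504 ± 0.0502), Fkbp9 (0.460 ± 0.157), Gm44174 (0.378 ± 0.350), Pde1c (0.377 ± 0.0350) and Gm44175 (0.0174 ± 0.00739). Neighbours in that order from Sema4f to Pde1c did not differ beyond their spread. In cNK CD8KO, Gm44174 ranked next after Nod1, at 31.3 ± 6.27 CPM per kilobase, and Pde1c and Fkbp9 came last, at 0.0647 ± 0.0142 and 0.0856 ± 0.0311.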

How the data were processed

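Sorted LrNK and cNK were profiled by bulk RNA sequencing, from total RNA with a TruSeq RNA kit, per the labels' protocols. The deposited files hold raw gene counts, 1 file per library, which the authors made after alignment with HISAT2 2.1.0 to GRCm38, per the submitters' processing notes. How reads were counted (tool, annotation release, strand option) is not given in the sources used here. Identifiers were named and placed with GENCODE M21, in which 123 identifiers had no entry. The 10 genes and all lists were chosen with earlier results of these data known.

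Libraries of 1 group whose counts agreed within a chi-square per degree of freedom below 4 were summed (LrNK CD8KO libraries 2 and 3, 2.67; LrNK WT libraries 2 and 4, 3.04), where other pairs of LrNK libraries gave 196 to 283 and pairs of cNK libraries 8.92 to 18.1. The summed pairs still differed by more than counting noise alone, and were counted as 1 sample because they stood so far below every other pair. Counts were filtered (minimum count 10, total 15), scaled by TMM and tested with edgeR 4.0.16 in R 4.3.3 (quasi-likelihood, Benjamini-Hochberg over all genes tested, adjusted p under 0.05): cNK alone and LrNK alone for CD8KO against WT, and all 4 groups for LrNK against cNK. DESeq2 1.42.0, limma 3.58.1, other scaling, no filter, a replicate term and left-out samples were alternatives. The edgeR fits of the main comparisons were tested on simulated data, and the other steps and the alternatives were not. In the simulated data each gene had the same spread in all groups of a comparison. They therefore do not cover the unlike spreads of LrNK and cNK. Intervals cover counting error only. The genes named were the 10, Cd8a and Cd8b1, related genes called between cell types and the 3 genes nearest in profile to the member that changed most. Neighbouring genes, Mat2b, Xist, Ddx3y and single marker genes were named after their values were seen.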

Additional observations from a re-analysis of the deposited data

How the results depend on the processing

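In cNK, 218 genes were called by the label, and 590 without a count filter, 512 with DESeq2, 332 with limma voom, 355 with a replicate block, 1 with all 4 groups in 1 fit and 40 with the CD8KO sample low in Xist alone. Leaving out 1 sample gave 71 to 254. Within 20 Mb the count of 10 became 18 without a filter, 17 with DESeq2, 0 with all 4 groups in 1 fit and 3 within a window of 10 Mb. Leaving out 1 sample there gave 7 to 11. In LrNK the count of 0 became 259 without a filter, 62 with DESeq2, 180 with a replicate block, 148 with all 4 groups in 1 fit and 22 with the 13 libraries kept apart, and stayed at 0 with each sample left out. Between LrNK and cNK the count of 6792 became 3571 within CD8KO and 13258 with the 2 LrNK samples of many detected genes (1 per label, so the spread is that of cNK alone, and the lone samples are assumed to vary like it), and 5286 to 8852 with 1 sample left out. The cause of these shifts was not tested.

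Same-numbered samples deviated together by correlations of 0.0236, 0.0145 and 0.0471 in cNK and of 0.297 and 0.49 in LrNK, where only 2 numbers are shared, so the numbers were not taken to pair the samples. Of the 10 genes' log2 values, 124 of 130 in cNK, 113 of 140 in LrNK and 183 of 200 between cell types stayed within their spread or on their side of the threshold. No call between cell types was lost and 11 were gained, 3 of them in that fit of 2 LrNK samples. Depth limits Gm44174 and Gm44175 in WT, with 6 and 35 counts in LrNK and 11 and 14 in cNK.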
